A study of Homo sapiens with 6 samples.

Results

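The genes described here are 10 transcriptional targets of p53 that act in stress signalling, autophagy and metabolism: GDF15, EDA2R, TP53INP1, DRAM1, ACER2, SESN1, RPS27L, TIGAR, FDXR and TP53I3. They were chosen by gene symbol from the 20020 genes of the count table, with earlier results of this same comparison known, so their directions below are a description and support nothing by themselves. All 10 passed the filter on low counts, as did 12925 genes in all. RNA-seq had been done on HCT116, a human colorectal cancer line, in 3 libraries of knockout cells (CAD-KO2+IR) and 3 of vector control cells (sgVec+IR). CAD-KO2+IR cells are a stable line made with a guide RNA against CAD, the caspase-activated DNase encoded by DFFB, and the sgVec+IR cells carried the vector alone. Both groups had been irradiated with 8 Gy and collected 24 h later, and no unirradiated library was analysed here, so the comparison describes the knockout line against the control line after irradiation and not the response to irradiation. The knockout is 1 line, and the sources used here do not say whether it was grown from a single cell or whether the replicates were separate cultures, so the p-values measure the spread between these libraries, which may be technical.

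After DNA damage, kinases of the ATM and ATR family stabilise p53, which binds response elements near its target genes and raises their transcription. Beside the arrest and death genes, p53 induces a group that reports stress to other cells, feeds autophagy and lysosomal turnover, and shifts carbon and redox metabolism. A p53 response element is built from copies of a 10-base unit, the p53 decamer, which reads the same on both strands.

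The promoter sequences are shown because p53 acts through its binding elements. The genes were chosen as known p53 targets, so a higher share of decamers among them is a description and no independent result. RefSeq (GRCh38.p14) gave a promoter window, from 250 bases before to 50 bases after the start, for 9 of the 10 genes in 13 windows, and TP53INP1 had no entry. The decamer consensus, searched by name over both strands, was found in 3 of the 13 windows (23.1%), those of FDXR, RPS27L and SESN1, against 6.63% of 35116 windows of all genes and 6.22% of 21675 windows of genes in the count table. By gene, 3 of 9 held it, against 8.11% of the table's genes with a window and 4 of 29 of the other p53 targets. TATAAA, searched on both strands, was found in GDF15 only, in 1 of the 13 windows (7.69%) against 11.5% of all windows. These are matches of letters and not measured binding. The stretches of 100 bases below are printed 5′ to 3′ on the strand of the gene, with the match in capitals, from chr17:74872995-74873094 (FDXR, minus strand), chr15:63157478-63157577 (RPS27L, minus strand), chr6:109008989-109009088 (SESN1, minus strand) and chr19:18386058-18386157 (GDF15, plus strand).
FDXR: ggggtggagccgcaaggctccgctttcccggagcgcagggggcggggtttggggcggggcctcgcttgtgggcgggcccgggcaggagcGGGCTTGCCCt
RPS27L: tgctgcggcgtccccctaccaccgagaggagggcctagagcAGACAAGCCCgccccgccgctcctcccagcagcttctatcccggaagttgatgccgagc
SESN1: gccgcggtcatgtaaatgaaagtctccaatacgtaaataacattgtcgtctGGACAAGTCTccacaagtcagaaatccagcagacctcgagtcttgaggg
GDF15: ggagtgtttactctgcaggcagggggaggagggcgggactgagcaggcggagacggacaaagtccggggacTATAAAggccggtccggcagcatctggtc
The first 3 capitalised stretches are the decamer matches and the last is TATAAA. The FDXR match lay 11 to 2 bases before the start, that of RPS27L 59 to 50 and that of SESN1 49 to 40.

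The libraries held 14032994 to 19574144 counts. The targeted gene, DFFB, was at 10.03, 10.12 and 12.4 CPM (read counts scaled to a common library size, with trimmed mean of M-values factors) in CAD-KO2+IR and 20.9 to 22.9 in sgVec+IR, with no overlap (log2 fold change -1.02, SE 0.193, edgeR adjusted p = 0.550). A library stood apart in each group: sgVec+IR 3 had 7561 genes with no count against 4577 to 5232 in the other 5, and its log2 CPM correlated with theirs at 0.886 to 0.927, while CAD-KO2+IR 2 correlated with its 2 group mates at 0.969 and 0.975. The 2 other control libraries correlated at 0.993. Of 8 epithelial markers 7 passed the filter and VIL1 (0 to 3 counts) did not. The summed level of the 8 was 2870 to 4101 CPM in CAD-KO2+IR and 2163 to 4239 in sgVec+IR. The epithelial adhesion gene CDH1 was lower in CAD-KO2+IR by 0.54 on the log2 scale (63.9 to 69.8 against 93.9 to 99.7 CPM) while the keratin KRT18 was higher by 0.31 (446 to 494 against 274 to 440 CPM), neither called. Of 15 markers of blood, endothelium, fibroblasts and muscle 5 passed, and the summed level of the 15 was 33.53 to 47.96 and 24.4 to 64.35 CPM. The fibroblast marker COL1A1 was the highest of them, at 25.5 to 38.7 CPM in CAD-KO2+IR and 10.9 to 47.8 in sgVec+IR. CD3E and DCN were at 0 in every library. The endothelial marker VWF was at 0.685 to 1.42 against 2.45 to 5.15 CPM (log2 fold change -1.77, adjusted p = 0.9999 by edgeR). Its groups did not overlap, with CAD-KO2+IR lower, as for 5.01% of all genes tested. The part of these markers in the results below was not tested.

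A gene was called where its fold change reached 1.5 and its adjusted p (edgeR quasi-likelihood test, Benjamini-Hochberg over all 12925 genes) was under 0.05. None of the 10 genes was called (adjusted p = 0.9999 for each), against 0.0309% of all genes tested. At an unadjusted p under 0.05 there was 1, TP53INP1, against 2.85% of all genes. DESeq2 also called 0 with 1 at an unadjusted p under 0.05, and limma-voom called 0 with 0. By direction, 9 of the 10 had a lower level in the knockout libraries and the median of their log2 fold changes was -0.38, beside 51.9% lower and a median of -0.01 over all genes tested. The exception was EDA2R. In bulk RNA a lower value can come from fewer cells expressing a gene or from less RNA per cell, and these cannot be told apart here.

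**Figure D1:**
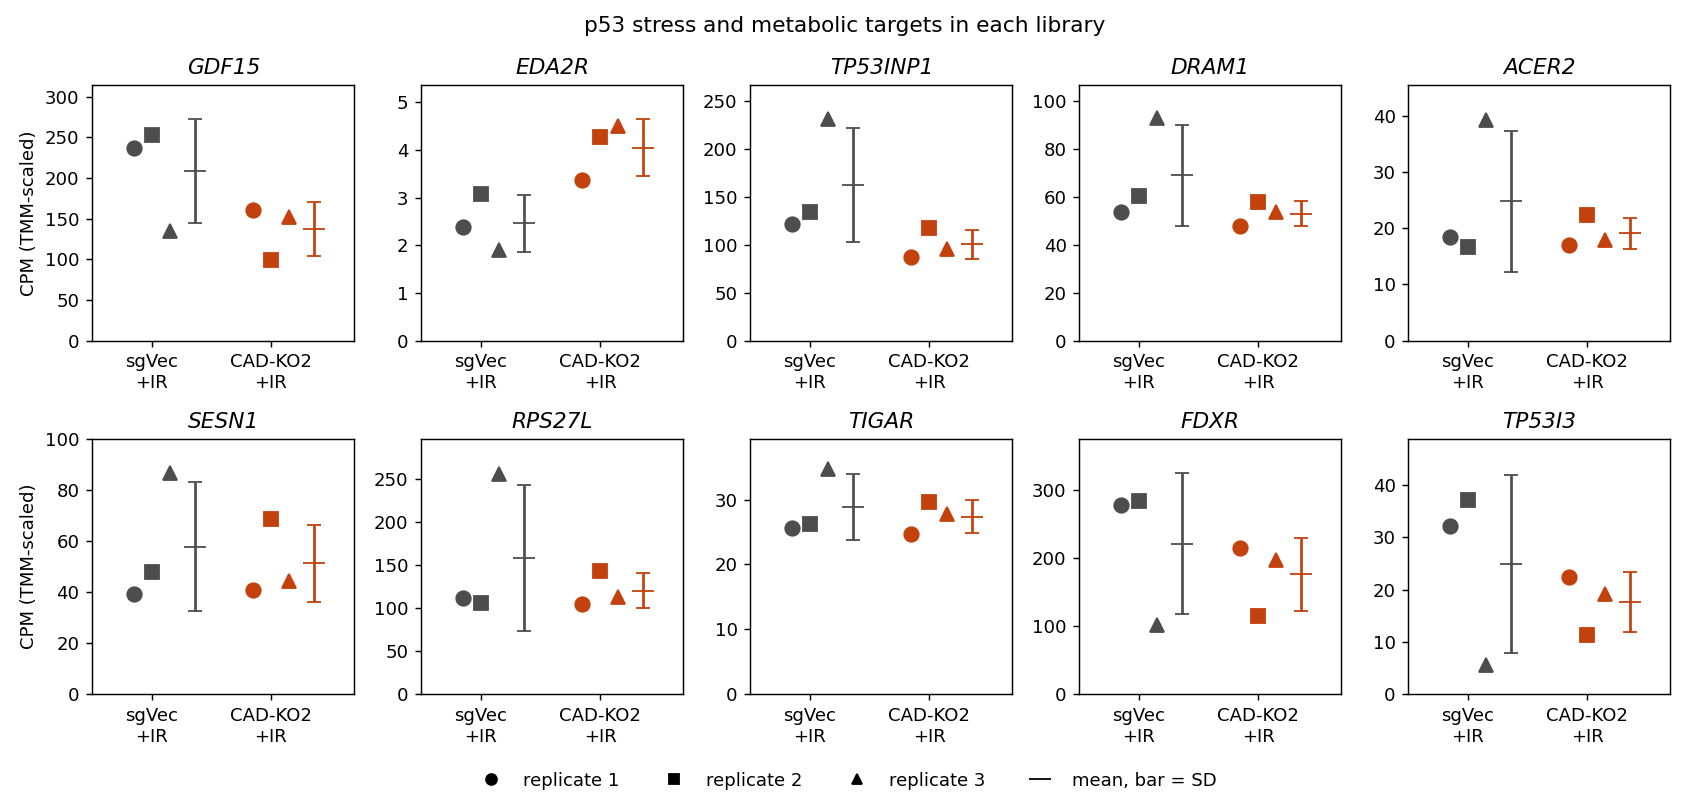
Level of each of the 10 genes in CPM (y axis, from 0, a separate scale for each gene) in the 3 sgVec+IR and 3 CAD-KO2+IR libraries, with marker shape for the replicate number and a horizontal tick and bar for the mean and SD. The groups are apart only for TP53INP1 (CAD-KO2+IR lower) and EDA2R (CAD-KO2+IR higher), and sgVec+IR 3 lies away from its 2 group mates in most panels.

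Of the genes that signal between cells, GDF15, a secreted cytokine of the TGF-beta superfamily that is a widely used marker of cell stress, was the most abundant per transcript length. GDF15 (chr19:18374731-18389176, plus strand, GRCh38) was at 161, 99.2 and 152 CPM in CAD-KO2+IR 1, 2 and 3, and at 237, 253 and 135 CPM in sgVec+IR 1, 2 and 3. The groups overlapped because sgVec+IR 3 lay below 2 knockout libraries, while the other control libraries lay above all 3. The means were 138 ± 33.5 and 208 ± 63.8 CPM (SD, n = 3 each), a log2 fold change of -0.60 (SE 0.295). Per length, the mean level of GDF15 was 65.9 RPKM (CPM divided by exon length in kilobases) in CAD-KO2+IR and 99.8 in sgVec+IR.

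EDA2R, a receptor of the tumour necrosis factor family for ectodysplasin A2, went the other way. EDA2R (chrX:66595637-66639298, minus strand) was at 3.36, 4.27 and 4.50 CPM in CAD-KO2+IR and 2.39, 3.08 and 1.90 CPM in sgVec+IR, from 62, 81 and 79 counts against 39, 45 and 27. All 3 knockout libraries lay above all 3 controls, as they did for 5.23% of all genes tested. The means were 4.04 ± 0.602 and 2.46 ± 0.591 CPM, a log2 fold change of 0.71 (SE 0.316), on the fewest counts of the 10 genes. Per length, EDA2R was also the lowest, at 1.13 and 0.686 RPKM.

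Among the autophagy and lysosome genes, TP53INP1, which encodes a stress-induced protein that moves from the nucleus to autophagosomes, was lower in every knockout library. TP53INP1 (chr8:94925972-94949411, minus strand) was at 87.6, 117 and 95.8 CPM in CAD-KO2+IR and 122, 134 and 231 CPM in sgVec+IR. The 3 knockout libraries lay below the 3 controls, as they did for 5.01% of all genes tested, though CAD-KO2+IR 2 came close to sgVec+IR 1 and the mean difference was widened by sgVec+IR 3. The means were 100 ± 15.3 and 162 ± 59.6 CPM, a log2 fold change of -0.69 (SE 0.278, unadjusted p = 0.0414, adjusted p = 0.9999 by edgeR).

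DRAM1, a lysosomal membrane protein required for p53-induced autophagy, had a log2 fold change of -0.38 (SE 0.244). DRAM1 (chr12:101877351-102012130, plus strand) was at 47.7, 57.8 and 53.6 CPM in CAD-KO2+IR and 53.6, 60.4 and 93.0 CPM in sgVec+IR. The knockout libraries fell within or just below the range of sgVec+IR 1 and 2, and the gap between the means came largely from sgVec+IR 3. ACER2, the Golgi alkaline ceramidase that releases sphingosine from ceramide, also had its highest value in sgVec+IR 3, but CAD-KO2+IR 2 lay above the other control libraries. ACER2 (chr9:19409059-19452020, plus strand) was at 17.0, 22.2 and 17.9 CPM against 18.3, 16.7 and 39.2 CPM, a log2 fold change of -0.37 (SE 0.358).

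SESN1, a sestrin that restrains mTORC1, overlapped fully between the groups. SESN1 (chr6:108986437-109094819, minus strand) was at 41.0, 68.6 and 44.3 CPM in CAD-KO2+IR and 39.1, 47.7 and 86.7 CPM in sgVec+IR (log2 fold change -0.17, SE 0.352). Its high values were CAD-KO2+IR 2 and sgVec+IR 3, the 2 libraries that stood apart. RPS27L, a ribosomal protein S27-like protein that binds MDM2, repeated this. RPS27L (chr15:63125872-63158021, minus strand) was at 105, 143 and 114 CPM against 112, 106 and 256 CPM (log2 fold change -0.39, SE 0.363). Its paralog RPS27 had a log2 fold change of -0.002, and how reads shared by the pair were counted is not stated, so the level of RPS27L is uncertain.

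TIGAR, which lowers fructose-2,6-bisphosphate and so slows glycolysis in favour of the pentose phosphate pathway, varied least relative to its mean level. TIGAR (chr12:4307763-4354593, plus strand) was at 24.7, 29.7 and 27.8 CPM in CAD-KO2+IR and 25.6, 26.2 and 34.6 CPM in sgVec+IR. Its log2 fold change of -0.07 (SE 0.201) was within the spread between libraries of either group.

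The last 2 genes act in redox metabolism. FDXR, the mitochondrial ferredoxin reductase that passes electrons from NADPH to ferredoxins for iron-sulfur cluster and steroid synthesis, is at chr17:74862497-74873031 on the minus strand. FDXR was at 216, 116 and 198 CPM in CAD-KO2+IR and 278, 284 and 102 CPM in sgVec+IR (means 176 ± 53.5 and 221 ± 103, log2 fold change -0.33, SE 0.418). CAD-KO2+IR 2 and sgVec+IR 3 were the low libraries, the reverse of SESN1 and RPS27L. TP53I3, a quinone oxidoreductase that generates reactive oxygen species, is at chr2:24077433-24085861 on the minus strand. TP53I3 was at 22.4, 11.3 and 19.2 CPM against 32.0, 37.0 and 5.57 CPM (means 17.6 ± 5.69 and 24.9 ± 16.9, log2 fold change -0.50, SE 0.610). The level in sgVec+IR 3 was 6.199-fold below the mean of sgVec+IR 1 and 2, the widest departure of that library among the 10 genes.

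**Figure D2:**
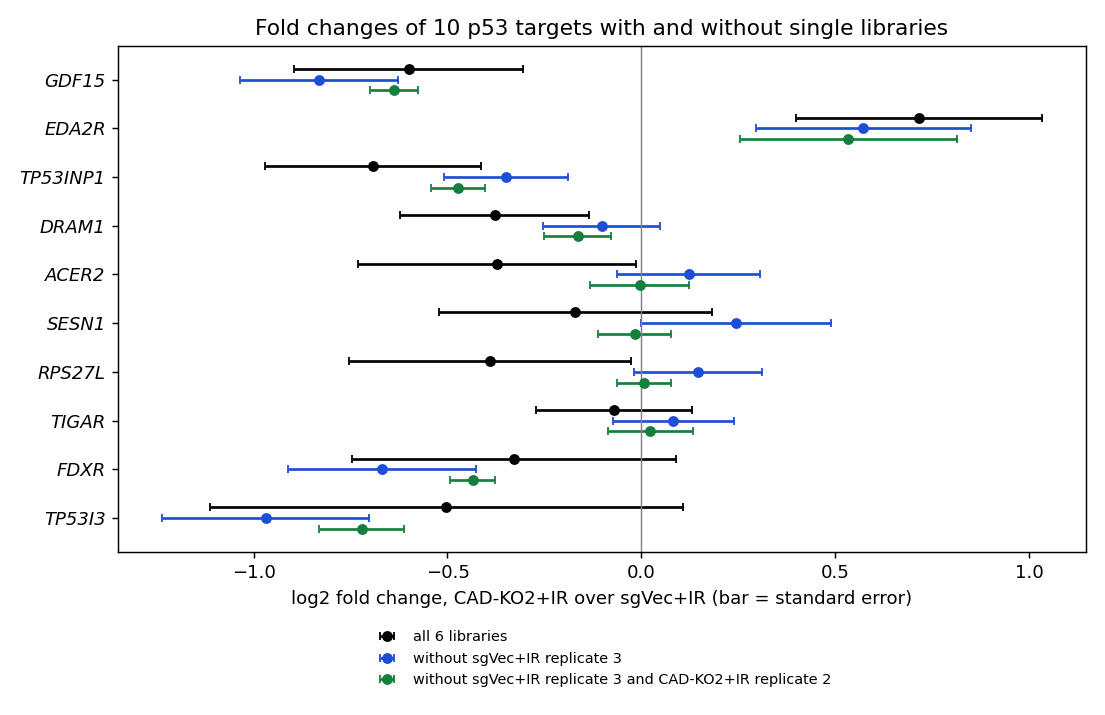
Log2 fold change of CAD-KO2+IR over sgVec+IR (x axis) for each of the 10 genes, with bars for its standard error, in the fit of all 6 libraries (black), without sgVec+IR 3 (blue), and in 2 libraries against 2 without CAD-KO2+IR 2 and sgVec+IR 3 (green). GDF15, TP53INP1, FDXR and TP53I3 stay below 0 and EDA2R above 0 in the fits shown, while SESN1, TIGAR, ACER2 and RPS27L lie above 0 without sgVec+IR 3 and near 0 without both libraries.

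The departures of the 2 libraries followed the GC content of the genes. GDF15, FDXR and TP53I3 have 62.92%, 61.8% and 58.36% GC in their longest transcript, above the median of 48.73% over all genes tested, and the other 7 have 39.55% to 47.9%. The 3 GC-rich genes were low in sgVec+IR 3 against the mean of sgVec+IR 1 and 2 (log2 ratios of CPM of -0.86, -1.46 and -2.63) and in CAD-KO2+IR 2 against the mean of CAD-KO2+IR 1 and 3 (-0.66, -0.84 and -0.87). Of the 7 others, 6 were high in sgVec+IR 3, all but EDA2R (-0.52), and 7 were high in CAD-KO2+IR 2.

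Across these 10 genes, which share each library's depth and base composition, Pearson's correlation of the departure with GC was -0.794 for sgVec+IR 3 and -0.926 for CAD-KO2+IR 2. Over 40 other p53 targets it was -0.879 and -0.916, and over 12099 genes tested -0.695 and -0.784, so the 10 genes followed a pattern of the whole libraries. The fold change of CAD-KO2+IR over sgVec+IR in the fit of all 6 libraries correlated with GC at -0.258 over the 10 genes and -0.033 over all genes. With a GC offset in the edgeR fit, added after the data were seen, TP53INP1 had a log2 fold change of -0.64 (adjusted p = 0.0309). It was the 1 gene of the 10 called, while 42 of all 12925 genes were called, and the median of the 10 was -0.36. With the offset alone GDF15 was at -0.65 (edgeR adjusted p = 0.162) and TP53I3 at -0.39 (edgeR adjusted p = 0.754). With the replicate block beside the offset, TP53INP1 was at -0.64 (adjusted p = 0.219) and none of the 10 was called.

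**Figure D3:**
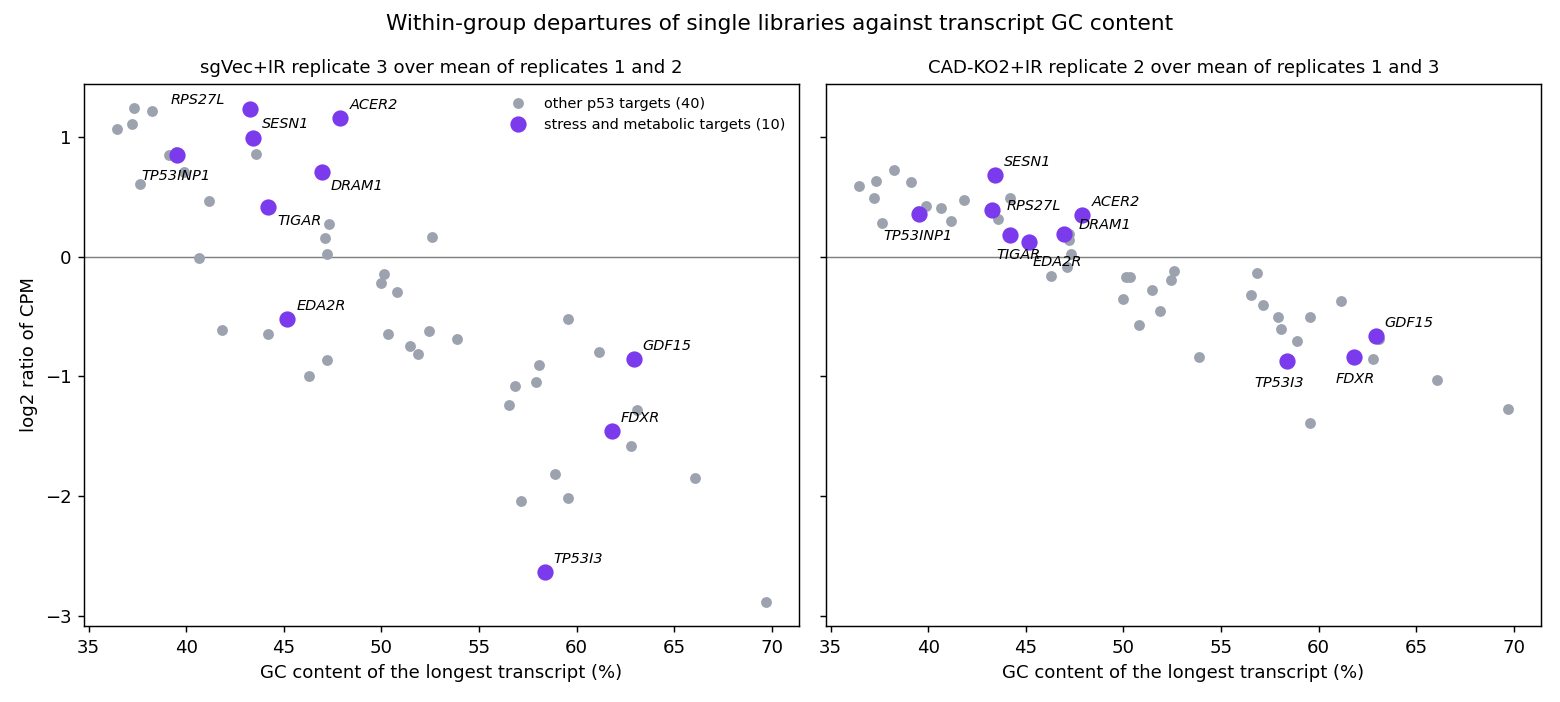
Log2 ratio of CPM (y axis) of sgVec+IR 3 over the mean of sgVec+IR 1 and 2 (left) and of CAD-KO2+IR 2 over the mean of CAD-KO2+IR 1 and 3 (right) against GC content of the longest transcript in percent (x axis), for the 10 genes (large points, named) and 40 other p53 targets (small points). In both panels GDF15, FDXR and TP53I3, the genes above 58% GC, lie below 0, and in the left panel the range reaches -2.63 for TP53I3.

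The values without the 2 libraries are given beside these. With 2 libraries against 2 (CAD-KO2+IR 1 and 3 against sgVec+IR 1 and 2, chosen after the data were seen), GDF15 had a log2 fold change of -0.64 (edgeR adjusted p = 1.15e-11) and TP53I3 of -0.72 (2.26e-06), and these 2 of the 10 were called, against 3.37% of 13059 genes. FDXR (-0.44, adjusted p = 1.78e-07) and TP53INP1 (-0.47, 1.37e-06) stayed under the fold threshold, and EDA2R was at 0.53 (0.195). The 4 genes with an adjusted p under 0.05 were the 3 GC-rich ones and TP53INP1. At an unadjusted p under 0.05 by edgeR there were also 4 of the 10, against 3873 of 13059 genes, so low values were common in this fit. The ratio between these libraries also moved with GC, at a Pearson's correlation of -0.619 over the 10 genes, -0.568 over the 40 other p53 targets and -0.316 over 12099 genes. Of all genes above the median GC 4358 of 6452 were lower in CAD-KO2+IR 1 and 3, against 2274 of 6461 at or below it, and the part of GC in the calls of GDF15 and TP53I3 was not tested. For SESN1, TIGAR, ACER2 and RPS27L the ratio of mean CPM between these libraries was within 0.03 of 0 on the log2 scale.

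limma-voom with sample weights gave sgVec+IR 3 a weight of 0.0404 and CAD-KO2+IR 2 a weight of 0.154. CAD-KO2+IR 1 and 3 had weights of 1.794 and 6.75, and sgVec+IR 1 and 2 of 3.758 and 3.535. The knockout side of that fit thus rested mostly on CAD-KO2+IR 3. It called 3 of the 10 against 5.15% of all genes. These were GDF15 (log2 fold change -0.67, adjusted p = 8.02e-05), TP53I3 (-0.79, 0.00196) and EDA2R (0.65, 0.0378). Without sgVec+IR 3 alone, 5 of the 10 were lower and the median was -0.01. The count of 9 lower genes therefore rested on that library, and the genes that kept a lower value in every fit run were GDF15, TP53INP1, DRAM1, FDXR and TP53I3. Their size still depended on single libraries. Leaving out 1 library gave -0.83 (without sgVec+IR 3) to -0.41 (without CAD-KO2+IR 2) for GDF15, and -0.86 (without sgVec+IR 1) to -0.35 (without sgVec+IR 3) for TP53INP1. For DRAM1 the values were -0.53 (without sgVec+IR 1) to -0.10 (without sgVec+IR 3). FDXR ran from -0.67 without sgVec+IR 3 to -0.095 without CAD-KO2+IR 2, with -0.10 without sgVec+IR 2 and -0.13 without sgVec+IR 1. TP53I3 ran from -0.97 without sgVec+IR 3 to -0.11 without sgVec+IR 2, with -0.26 without CAD-KO2+IR 2 and -0.28 without sgVec+IR 1.

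The annotation gives an overlapping gene for 7 of the 10, and for 4 of them that gene is in the count table. The counting is not stated to use strand, so reads of TP53I3 and FAM228B, RPS27L and LACTB, TP53INP1 and NDUFAF6, and TIGAR and a gene model at 0 counts in every library cannot be told apart where exons coincide. FAM228B (1.46 to 2.19 CPM), LACTB (15.1 to 19.6) and NDUFAF6 (23.9 to 32.1) had log2 fold changes of -0.11, 0.13 and 0.12, none called.

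The rest of the pathway was read from gene lists. Of 40 other p53 targets 36 were lower in the knockout libraries (24 to 33 with any 1 library left out), the median of their log2 fold changes was -0.15 and none was called. In that list PLK2, a polo-like kinase, had groups that did not overlap and was higher (266 to 313 against 214 to 218 CPM, log2 fold change 0.41). The hydrolase gene CMBL had non-overlapping groups and was lower (-0.15). These were 1 of the 40 in each direction, against 5.23% of all genes higher and 5.01% lower. The sestrin SESN2 was at -0.18. Of 19 measured genes for p53 and its regulators 11 were lower (median -0.04), and the kinase HIPK2 (0.24), the deubiquitinase USP7 (0.24) and the acetyltransferase EP300 (0.18) had higher, non-overlapping groups, 3 of the 19 against 5.23% of all genes, with none called.

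The processes in which the 10 act were read in the same way. Among 20 measured relatives, receptors and partner enzymes 15 were lower (median -0.17). RET, the signalling co-receptor for GDF15, was at 6.70 to 9.86 CPM against 10.9 to 14.9 (-0.65). PFKFB4, an enzyme that sets fructose-2,6-bisphosphate, was at -0.40. These 2 of the 20 had lower, non-overlapping groups, against 5.01% of all genes. GFRAL, the GDF15 receptor in that list, had 0 counts in every library, so the values of RET say nothing on how these cells receive GDF15. Of 24 core autophagy genes 14 were lower (median -0.11), with ATG10 at -0.52, GABARAPL2 at -0.34 and ATG3 at 0.39. Of 12 genes of the pentose phosphate pathway (both branches) and of NADPH supply and use 6 were lower (median 0.03). Thioredoxin reductase TXNRD1 (0.35), RPE (0.26), RPIA (0.23) and glutathione reductase GSR (0.14) had higher, non-overlapping groups, 4 of the 12 against 5.23% of all genes. RPE and RPIA belong to the non-oxidative branch, and these reductases use NADPH. A list of 19 genes held ATF4, the integrated stress response factor that also drives GDF15 and SESN2, and targets of ATF4. Of these 19 genes 12 were lower (median -0.13), with CTH at -0.57, STC2 at 0.46, ATF3 at 0.30 and ATF4 itself at 0.17. No gene of these 4 lists or of the lists of p53 targets and regulators was called by edgeR, DESeq2 or limma-voom. An unadjusted p under 0.05 by edgeR was reached by PLK2 of 40 genes, RET of 20, TXNRD1 of 12, and CTH and DDIT4 of 19. The share over all genes tested was 2.85%. DDIT4, an mTORC1 inhibitor at -0.91, was named after its value was seen. With sample weights limma-voom called BBC3 and NINJ1 of 40 genes, RET of 20, ASNS and DDIT4 of 19, and TFEB of 24. In that fit 5.15% of all genes were called.

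**Figure D4:**
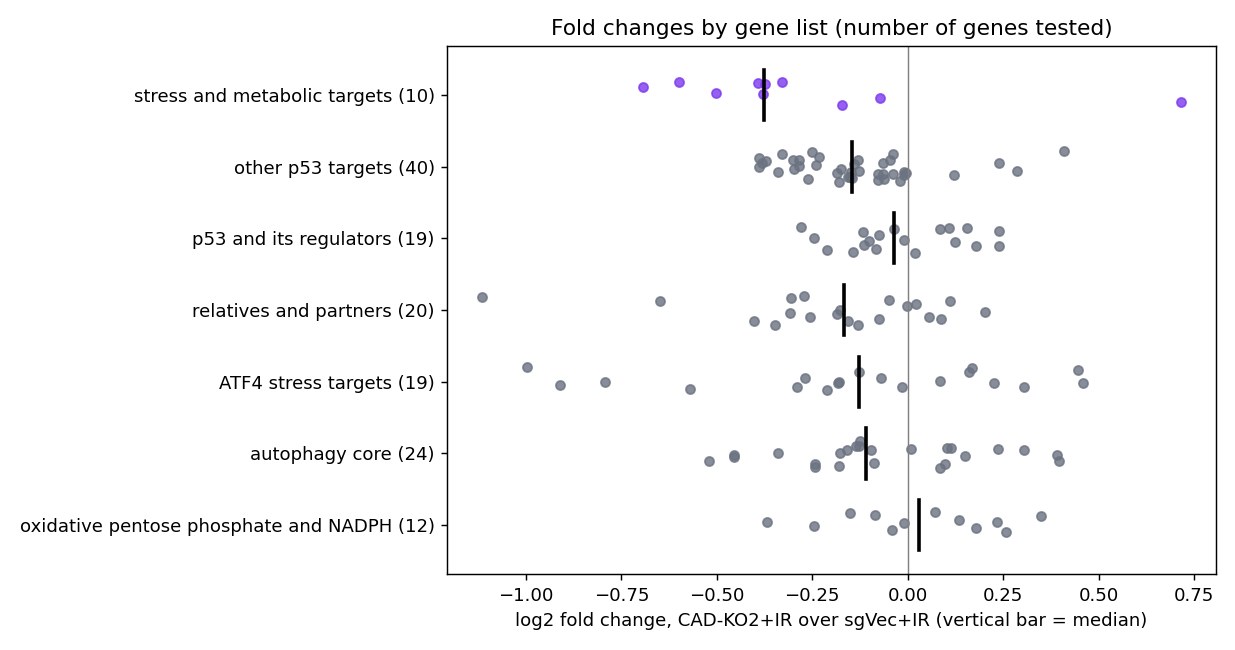
Log2 fold change of CAD-KO2+IR over sgVec+IR (x axis) for every measured gene of each list (rows, with the number of genes), with the median of the list marked. The 10 stress and metabolic targets have a median of -0.38, the 40 other p53 targets of -0.15, and the pentose phosphate and NADPH genes of 0.03. The row for the oxidative pentose phosphate pathway and NADPH also holds genes of the non-oxidative branch, and the row for ATF4 targets holds ATF4 itself.

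The genes whose profile over the 6 libraries was most like the mean of the 10 standardised profiles were MFSD2B (Pearson's r 0.994), C15orf61 (0.991), TFDP2 (0.989), LMO1 (0.987) and FOXN3 (0.986), as a description over 6 libraries that include those standing apart. Each had its highest value in sgVec+IR 3. MFSD2B (0.976 to 4.65 CPM), C15orf61 (1.41 to 3.95) and LMO1 (0.596 to 3.03) had low levels. The mean profile followed TP53INP1 (0.976) and DRAM1 (0.974) and ran against FDXR (-0.498), TP53I3 (-0.593) and EDA2R (-0.661), so the 10 genes did not share 1 profile over these libraries.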

How the data were processed

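RNA was extracted with TRIzol and sequenced on an Illumina platform. Per the study's methods, fastp was used by the authors for read cleaning and featureCounts 1.5.0-p3 for counting, and the deposited values are raw counts per gene. The aligner, the annotation and the counting strand are not given in the sources used here. The submitters' processing notes name mm10, while the gene identifiers are human, and 19823 of 20020 matched GENCODE release 29 (GRCh38), which gave coordinates, lengths and GC content.

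Counts were filtered (filterByExpr, minimum 10, total 15), scaled by TMM and tested with edgeR 4.0.16 (glmQLFit, glmQLFTest, R 4.3.3) on 3 CAD-KO2+IR against 3 sgVec+IR libraries, grouped by their titles. Alternatives used DESeq2 1.42.0 and limma 3.58.1. Calls needed a fold change of 1.5 or more and an adjusted p below 0.05. The 10 genes and the lists were chosen with earlier results of these data known. Named beside the 10 were DFFB, RPS27, SESN2, called genes of each list or else up to 4 with the largest change among those whose groups did not overlap, and the 5 genes most like the mean profile. Another gene that the rule names is not reported here.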

Additional observations from a re-analysis of the deposited data

How the results depend on the processing

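None of the 10 genes was called under any other scaling, filter or edgeR fit, under the replicate block, by DESeq2 or unweighted limma-voom, or without any single library; 3 were called with sample weights, 1 after GC correction, 2 with 2 libraries against 2, and 1 at an unadjusted p under 0.05. Over all genes, 4 calls became 41 by DESeq2 (465 at an unadjusted p under 0.05), 0 by limma-voom (302), 666 with sample weights, 42 after GC correction, 440 with 2 libraries against 2, 282 with an unadjusted p and the fold threshold, and 0 to 22 without 1 library, the 22 being without sgVec+IR 3. The number of lower genes among the 10 was 5 with sample weights and 5 to 9 without 1 library, the 5 being without sgVec+IR 3. Their median log2 fold change was -0.053 with sample weights, -0.091 with 2 libraries against 2 and -0.44 to -0.0098 without 1 library. For p53 and its regulators, 6 were lower with sample weights and 7 to 12 without 1 library, the 7 being without sgVec+IR 3. SESN1 turned to 0.027 with sample weights (-0.44 to 0.24 without 1 library), TIGAR to 0.066 (-0.15 to 0.083), ACER2 to 0.013 (-0.58 to 0.12) and RPS27L to 0.032 (-0.60 to 0.15), and with 2 libraries against 2 TIGAR was at 0.023 and RPS27L at 0.0059. Apart from the libraries left out or down-weighted, the cause was not tested. The deviations of same-numbered libraries from their group means correlated at 0.468, -0.545 and -0.379. These values cannot show whether same-numbered libraries were handled together, since sgVec+IR 3 and CAD-KO2+IR 2 stood apart and carry different numbers. The replicate block left 0 genes called by edgeR (146 at an unadjusted p under 0.05). With the block beside the GC correction, 4 genes were called over all genes and 0 of the 10. EDA2R, on 27 to 81 counts, had the least depth.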
